A study of Mus musculus with 7 samples.

Results

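Cathepsins are the proteases of the lysosome and of the endosomes that feed it. This account follows the 10 cathepsin genes Ctsa, Ctsb, Ctsc, Ctsd, Ctse, Ctsh, Ctsk, Ctsl, Ctss and Ctsz through immature and mature bone marrow-derived dendritic cells (BMDCs). They were taken by symbol from a table of 28666 genes, where each symbol belonged to 1 gene ID, and 4 further cathepsin symbols of the table (Ctsf, Ctsg, Ctso and Ctsw) serve as a comparison.

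Cathepsins are made as inactive precursors, tagged with mannose 6-phosphate in the Golgi and sorted to acidic compartments, where removal of a propeptide activates them. By catalytic residue, Ctsb, Ctsc, Ctsh, Ctsk, Ctsl, Ctss and Ctsz encode cysteine proteases of the papain family, Ctsd and Ctse aspartic proteases, and Ctsa a serine carboxypeptidase. In dendritic cells (DCs) these enzymes degrade endocytosed antigen and trim the invariant chain (CD74) from MHC class II molecules, and cystatins hold the papain-type enzymes in check.

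RNA-seq was performed on 3 libraries labelled immature and 4 labelled mature. The marrow came from female C57BL/6 mice aged 6 to 8 weeks, and the cells were cultured with GM-CSF (20 ng/mL) and IL-4 (10 ng/mL) for 7 days. They then shared a Transwell with MC38 colon carcinoma cells before flow sorting into mature and immature cells. For the sorted cells the results of the paper name the glutamine antagonist DON (24 h). The legend for this sort names DMSO or DON (5 μM), and the paper describes its DON condition with added glutamine. These details come from the paper, since the labels give no treatment per library. Whether cells from the DMSO condition were included therefore cannot be told. The markers of this sort are not stated, and the methods describe data in general as coming from independent biological experiments. The labels do not tie a library to a mouse or culture, so p-values measure the spread between these libraries. Cultures grown with GM-CSF are known to hold macrophage-like cells beside DCs.

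Library totals were 54846746 to 67973086 counts. No pair of libraries in a group agreed within sampling noise, and mature replicate 3 stood apart from the other mature libraries, with a median chi-square per gene of 17.7 to 25.6 against 4.26 to 5.27 among the rest. Relative to the rest of its group, mature replicate 3 had lower values for longer transcripts (Spearman rho -0.40 between log2 ratio and length over 17436 genes, which are not independent replicates). Heart muscle transcripts were counted in mature replicates 2, 3 and 4 and at a low level in mature replicate 1. All 6 maturation markers examined (Cd80, Cd86, Cd40, Ccr7, Cd83 and Fscn1) were higher in the mature libraries, with a summed level of 4376 to 5167 CPM against 405 to 418 CPM. In its mouse tumours the paper counts DCs positive for CD80 and CD86 as mature. If this sort used them too, higher Cd80 and Cd86 would follow from the sort. CPM are read counts scaled to the library size after TMM normalization, so a gene can be compared between libraries.

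All 10 cathepsin genes were lower in mature than in immature BMDCs, and for each gene every mature library lay below every immature one. At the criteria used here (log2 fold change of 1 or more in size, adjusted p under 0.05) 7 of the 10 fell (Ctsa, Ctsb, Ctsc, Ctsd, Ctse, Ctsk and Ctsl) and 0 rose. Among the 17461 genes tested, 9.95% were called lower and 13.2% higher by the same rule (edgeR's quasi-likelihood test with Benjamini-Hochberg adjustment). Ctss, Ctsz and Ctsh were lower by less than the fold criterion, and without that criterion all 10 had an adjusted p under 0.05, where 46.1% of all tested genes did. Groups without overlap were seen for 52.1% of all tested genes. The median log2 fold change of the 10 was -2.03, and that of all tested genes was 0.055. All 10 passed the filter on low counts.

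**Figure D1:**
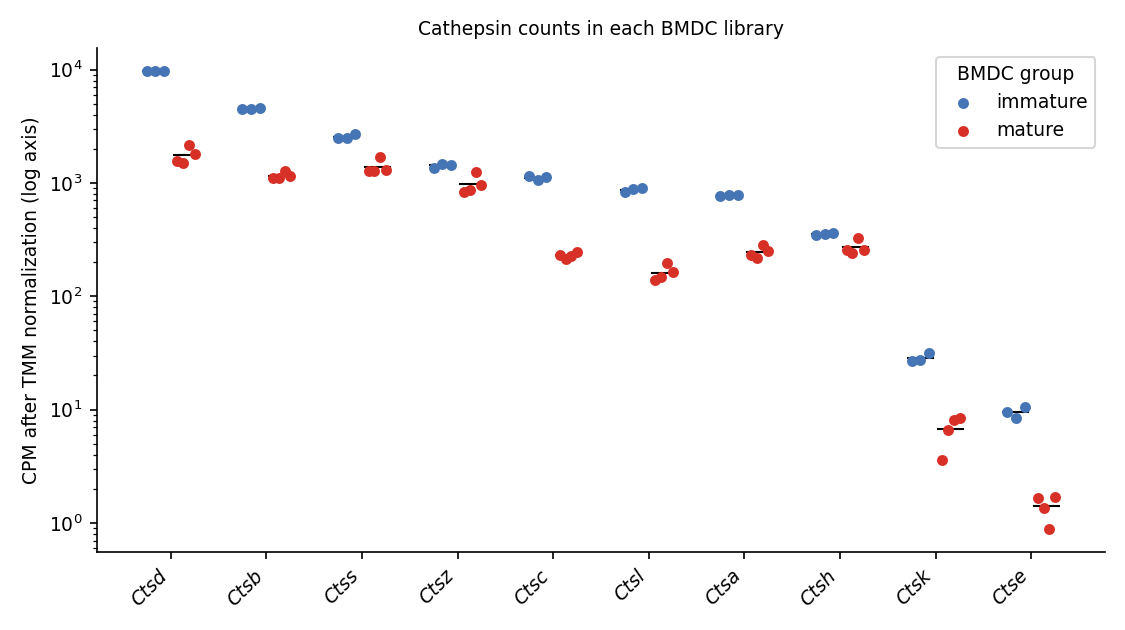
Each point is the CPM after TMM normalization (log axis) of a cathepsin gene in 1 library, immature (blue, 3 libraries) or mature (red, 4 libraries), and black bars are group means. The mature points of each gene lie below its immature points, with the narrowest gap for Ctsh, whose lowest immature library was 1.07 times its highest mature library.

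Ctss and Ctsl encode the endopeptidases that carry out the last cleavages of the invariant chain, cathepsin S in peripheral antigen-presenting cells and cathepsin L in thymic epithelium. Ctss (ENSMUSG00000038642, chromosome 3, 95526786 to 95556403) was at 2509, 2485 and 2684 CPM in immature replicates 1 to 3 and at 1277, 1261, 1677 and 1311 CPM in mature replicates 1 to 4. The highest mature value, in replicate 3, lay well above the other mature libraries and still below every immature library. Its log2 fold change of -0.89 ± 0.11 (SE, edgeR adjusted p = 0.000272) stayed short of the criterion of 1, and was -0.97 without mature replicate 3.

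Ctsl (ENSMUSG00000021477, chromosome 13, 64359337 to 64370890) was at 829, 876 and 895 CPM in the immature libraries and at 140, 146, 196 and 165 CPM in the mature ones. Even mature replicate 3, again the highest, was 4.22-fold below the lowest immature library. Ctsl fell with a log2 fold change of -2.42 ± 0.12 (SE, edgeR adjusted p = 1.26e-06). The ratio of the 2 genes restates these fold changes per library and is given in FPKM as a description. An exact 2-sided permutation test of its log2 values over 35 labelings gave p = 0.0571. That is the smallest p these labelings allow, so the test could not pass 0.05. FPKM scales a count by gene length and library total, so levels of different genes can be set side by side. The Ctss to Ctsl ratio was 14.5, 13.6 and 14.3 in immature replicates 1 to 3 and 43.7, 41.2, 40.9 and 38.0 in mature replicates 1 to 4. The ratio was higher in each mature library than in each immature one (mean 14.1 ± 0.489, SD, n = 3, against 40.9 ± 2.34, SD, n = 4).

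Ctsd and Ctsb encode abundant endopeptidases of the lysosome, the aspartic protease cathepsin D and the cysteine protease cathepsin B. Ctsd (ENSMUSG00000007891, chromosome 7, 142375911 to 142388038) was at 9628, 9778 and 9721 CPM in immature replicates 1 to 3 and at 1565, 1507, 2143 and 1793 CPM in mature replicates 1 to 4. The mature libraries spread more than the immature ones, with replicate 3 on top. Ctsd fell with a log2 fold change of -2.47 ± 0.13 (SE, edgeR adjusted p = 1.4e-06), a 5.54-fold difference. In the immature libraries it ranked 7th of all genes by FPKM, and in the mature libraries it ranked 55th to 63rd. In GENCODE M21 its span overlaps Gm49369 on the same strand, which was not analysed here.

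Ctsb (ENSMUSG00000021939, chromosome 14, 63122462 to 63145923) was at 4507, 4473 and 4590 CPM in the immature libraries and at 1099, 1100, 1279 and 1160 CPM in the mature ones. The groups lay far apart, the lowest immature library being 3.50 times the highest mature one. Ctsb fell with a log2 fold change of -1.96 ± 0.084 (SE, edgeR adjusted p = 5.54e-07).

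Of the genes for enzymes that work from the ends of a chain, Ctsc and Ctsa fell past the criteria and Ctsh and Ctsz did not reach the fold criterion. Ctsc (ENSMUSG00000030560, chromosome 7, 88278085 to 88310888) encodes dipeptidyl peptidase I, which activates granule serine proteases. It was at 1154, 1068 and 1126 CPM in immature and at 230, 214, 226 and 247 CPM in mature replicates. Here mature replicate 3 lay between the other mature libraries. Ctsc fell with a log2 fold change of -2.28 ± 0.080 (SE, edgeR adjusted p = 3.04e-07), the smallest adjusted p of the 10 genes.

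Ctsa (ENSMUSG00000017760, chromosome 2, 164832873 to 164840019) encodes protective protein, a carboxypeptidase that also stabilizes neuraminidase 1 and beta-galactosidase in the lysosome. It was at 761, 778 and 774 CPM in immature and at 231, 218, 283 and 250 CPM in mature replicates, again with mature replicate 3 highest and no overlap. Ctsa fell with a log2 fold change of -1.65 ± 0.099 (SE, edgeR adjusted p = 3.02e-06). In GENCODE M21 the span of Ctsa overlaps Pltp and Neurl2 on the opposite strand. Pltp, for phospholipid transfer protein, was at 1304, 1288 and 1322 CPM in immature and at 239, 190, 247 and 242 CPM in mature replicates. Further overlaps were those of Ctsb with Fdft1 (log2 fold change -0.36), Ctsz with Nelfcd (0.41) and Ctsc with Gm26522 on the opposite strand, of Ctsl with the antisense gene Gm47123, and, on the same strand, of Ctsl and Ctss with the pseudogenes Gm49230 and Hmgb1-ps5. Ctse, Ctsh and Ctsk overlapped no annotated gene. The library kit marks strand, but whether the counting used it is not given in the sources used here, so reads from shared stretches cannot be told apart.

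Ctsz (ENSMUSG00000016256, chromosome 2, 174427493 to 174439039), for a carboxypeptidase also called cathepsin X, was at 1361, 1479 and 1449 CPM in immature and at 825, 863, 1250 and 953 CPM in mature replicates. Mature replicate 3 came close to the immature range, whose lowest library was 1.09 times higher. The log2 fold change was -0.56 ± 0.14 (SE, edgeR adjusted p = 0.0119), and -0.68 without mature replicate 3. Ctsh (ENSMUSG00000032359, chromosome 9, 90054152 to 90076089), for an aminopeptidase that processes surfactant proteins in lung, was at 350, 353 and 362 CPM in immature and at 258, 240, 328 and 258 CPM in mature replicates. Mature replicate 3 was again the highest of its group, just below the immature libraries. Its log2 fold change of -0.39 ± 0.11 (SE, edgeR adjusted p = 0.0193) was the smallest of the 10. The adjusted p of Ctsh was above 0.05 under 5 of 15 alternatives, among them the omission of immature replicate 2 (0.0572), immature replicate 3 (0.0681) or mature replicate 4 (0.0503).

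The least abundant members were Ctsk and Ctse. Ctsk (ENSMUSG00000028111, chromosome 3, 95499256 to 95509362) encodes the collagen-degrading protease of osteoclasts and lies 17423 bases from Ctss on the same strand. It was at 26.8, 27.2 and 31.5 CPM in immature replicates 1 to 3 and at 3.58, 6.61, 8.11 and 8.46 CPM in mature replicates 1 to 4. Mature replicate 1 was the lowest library, and the groups did not overlap. Ctsk fell with a log2 fold change of -2.09 ± 0.26 (SE, edgeR adjusted p = 0.000228), and with one of -1.88 without mature replicate 1.

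Ctse (ENSMUSG00000004552, chromosome 1, 131638306 to 131675505) encodes an aspartic protease of endosomes rather than lysosomes. It had 558, 470 and 679 counts in immature and 110, 90, 47 and 106 counts in mature replicates, which is 9.51, 8.45 and 10.5 CPM against 1.67, 1.36, 0.889 and 1.70 CPM. Unlike any other member, it was lowest in mature replicate 3. Its log2 fold change of -2.75 ± 0.24 (SE, edgeR adjusted p = 2.38e-05) was the largest of the 10, and at these counts it depended on the scale, with a value of -1.35 in limma on log2(FPKM + 1).

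**Figure D2:**
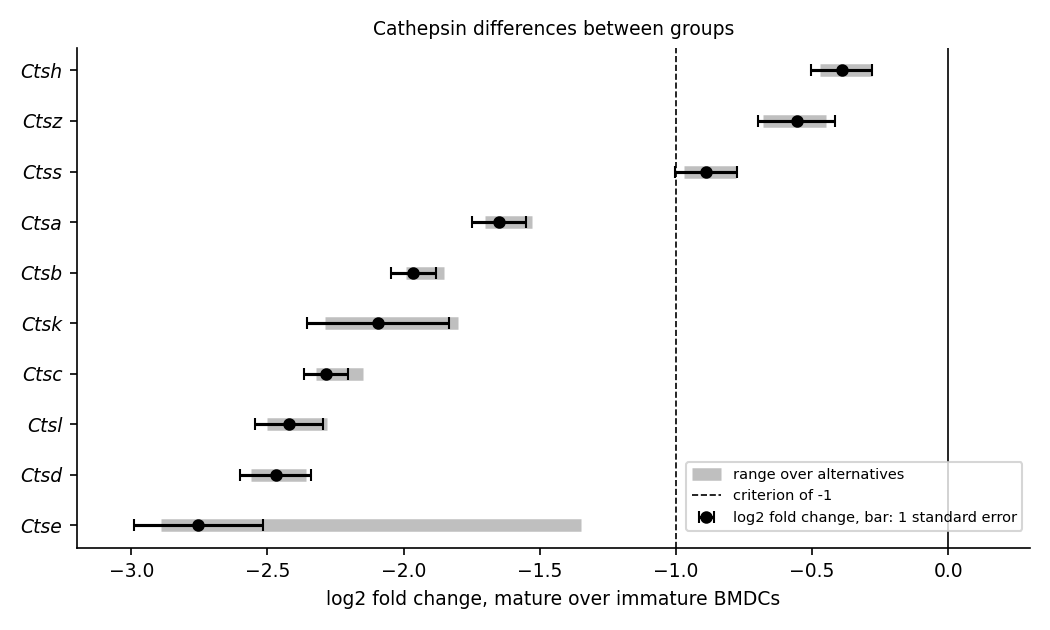
Points are log2 fold changes of mature over immature BMDCs from edgeR, bars are 1 standard error, grey bands span the 15 alternative analyses and the dashed line marks the criterion of -1. The 7 genes left of the line kept their bands left of it, and Ctss, Ctsz and Ctsh kept theirs between the line and 0.

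The cathepsins as a group took a smaller share of the mature transcriptome. Their summed FPKM was 7282, 7463 and 7250 in immature replicates 1 to 3 and 2441, 2477, 3033 and 2639 in mature replicates 1 to 4. As a share of all FPKM this was 2.22% ± 0.0144 (SD, n = 3) against 0.765% ± 0.0267 (SD, n = 4), a 2.89-fold difference. As a share of all counts it was 2.05% ± 0.0229 (SD, n = 3) against 0.635% ± 0.0552 (SD, n = 4). These shares are sums over the members and were not tested.

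The composition of that sum differed between the groups as well. Ctsd supplied 49.5% ± 0.621 (SD, n = 3) of the cathepsin FPKM in immature and 26.5% ± 0.859 (SD, n = 4) in mature cells. Ctss supplied 22.6% ± 0.690 (SD, n = 3) and 36.2% ± 1.03 (SD, n = 4), and Ctsz 11.9% ± 0.408 (SD, n = 3) and 23.9% ± 1.08 (SD, n = 4). The share of Ctsh was 0.946% and 2.15%, that of Ctsa 1.96% and 1.86%, and those of Ctsb, Ctsc, Ctsl, Ctsk and Ctse were lower in mature cells. Shares of a whole are tied to each other, so the larger shares of Ctss, Ctsz and Ctsh stand beside lower levels of all 3 genes.

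**Figure D3:**
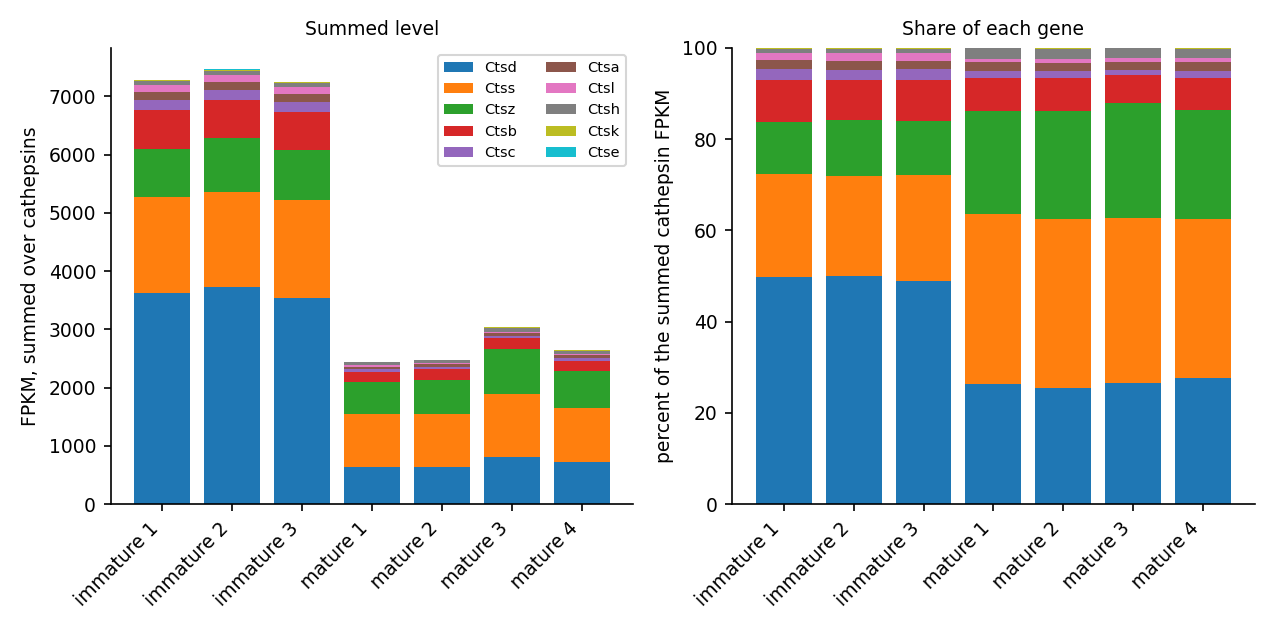
Left, FPKM summed over the 10 cathepsins in each library, with each gene as a coloured segment; right, each gene's percent of that sum. The sum was 7250 to 7463 in immature and 2441 to 3033 in mature libraries, and Ctsd (blue) was the largest segment in immature libraries whereas Ctss (orange) was the largest in mature ones.

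By FPKM the immature order was Ctsd (3629 ± 93.0, SD, n = 3), Ctss (1655 ± 30.7), Ctsz (872 ± 42.1), Ctsb (657 ± 6.91), Ctsc (169 ± 6.29), Ctsa (144 ± 3.60), Ctsl (117 ± 3.86), Ctsh (69.4 ± 0.782), Ctsk (16.5 ± 1.11) and Ctse (2.62 ± 0.227). No neighbours in this order overlapped between libraries. In mature cells the order began with Ctss (959 ± 88.5, SD, n = 4), Ctsd (702 ± 81.5) and Ctsz (635 ± 93.3). The ranges of Ctsd and Ctsz overlapped there, although Ctsd was above Ctsz within each mature library. Below them came Ctsb (181 ± 4.95) and then Ctsh (56.7 ± 5.22) and Ctsa (49.1 ± 3.34). The ranges of Ctsh and Ctsa also overlapped, with Ctsh above Ctsa within each mature library. Ctsc (37.4 ± 2.62), Ctsl (23.5 ± 2.58), Ctsk (4.16 ± 1.33) and Ctse (0.420 ± 0.120) closed the order, so Ctsh stood above Ctsc and Ctsl in mature cells and below both in immature ones.

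As all 10 genes were lower in mature cells, the stretch around their transcription starts was searched for 4 short motifs, on both strands of the RefSeq promoter windows for build GRCm38.p6 (250 bases before to 50 bases after a start). The table holds 8 windows for 7 members, and Ctsb, Ctse and Ctsh have none in it. The palindrome CACGTG, the core of the E-box bound by the lysosomal regulators TFEB, TFE3 and MITF, was present in windows of Ctsa, Ctsd and Ctsl (3 of 8 windows), and in 7.15% of all 32851 windows. GAGGAA, part of the site of the myeloid factor PU.1, was present in windows of Ctsc, Ctsk and Ctss (3 of 8), and in 28.3% of all windows. The AP-1 motif TGACTCA was in 0 of 8 windows (5.2% of all), and the NF-kappa B motif GGGANTTTC in 0 of 8 (1.11% of all). These matches describe letters in a window and were not tested as binding sites. The windows of Ctsd, Ctsl and the downstream start of Ctsa are shown because they hold CACGTG. Those of Ctss and Ctsk are shown because the genes are neighbours whose fold changes differed. The Ctsc window, which also holds GAGGAA, is not shown. Sequences run 5′ to 3′ on the strand of the gene, with CACGTG, or GAGGAA on either strand, in capitals.
Ctsd, chr7:142387778-142388077 (minus strand): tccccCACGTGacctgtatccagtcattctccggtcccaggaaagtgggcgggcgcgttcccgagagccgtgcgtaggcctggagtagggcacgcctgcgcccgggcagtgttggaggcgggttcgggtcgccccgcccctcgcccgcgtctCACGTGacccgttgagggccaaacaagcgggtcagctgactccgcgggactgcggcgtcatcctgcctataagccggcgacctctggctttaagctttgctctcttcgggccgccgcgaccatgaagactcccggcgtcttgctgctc
Ctsl, chr13:64370471-64370770 (minus strand): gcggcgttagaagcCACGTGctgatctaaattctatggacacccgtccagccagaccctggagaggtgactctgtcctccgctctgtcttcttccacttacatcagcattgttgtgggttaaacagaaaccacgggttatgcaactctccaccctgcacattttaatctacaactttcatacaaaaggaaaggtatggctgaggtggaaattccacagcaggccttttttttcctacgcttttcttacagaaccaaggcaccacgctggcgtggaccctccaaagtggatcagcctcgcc
Ctsa, chr2:164833523-164833822 (plus strand): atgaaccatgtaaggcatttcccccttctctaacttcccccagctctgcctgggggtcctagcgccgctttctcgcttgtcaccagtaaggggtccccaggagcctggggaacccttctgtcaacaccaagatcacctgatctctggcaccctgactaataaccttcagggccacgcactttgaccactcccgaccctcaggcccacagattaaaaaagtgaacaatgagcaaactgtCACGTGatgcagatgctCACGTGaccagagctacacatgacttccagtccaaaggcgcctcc
Ctss, chr3:95526536-95526835 (plus strand): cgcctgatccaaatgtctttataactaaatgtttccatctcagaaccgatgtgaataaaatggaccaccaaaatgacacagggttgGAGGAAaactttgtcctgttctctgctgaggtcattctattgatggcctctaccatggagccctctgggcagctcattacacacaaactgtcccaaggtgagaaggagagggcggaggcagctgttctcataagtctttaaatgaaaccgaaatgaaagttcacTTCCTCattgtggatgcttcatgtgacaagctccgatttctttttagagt
Ctsk, chr3:95498960-95499259 (plus strand): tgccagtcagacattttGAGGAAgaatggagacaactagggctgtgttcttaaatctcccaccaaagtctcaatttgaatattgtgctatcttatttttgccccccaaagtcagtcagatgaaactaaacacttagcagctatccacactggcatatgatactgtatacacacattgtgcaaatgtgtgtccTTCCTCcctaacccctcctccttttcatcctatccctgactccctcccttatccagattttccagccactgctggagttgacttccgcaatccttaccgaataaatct
The Ctsd window holds CACGTG 245 and 98 bases before the start, and that of Ctsl 236 bases before it. The Ctsa window shown holds it 12 bases before and 5 bases after the start. These starts are those of the RefSeq windows. The whole windows shown for Ctsl and Ctsa, and the Ctsd site at 98 bases, lie inside the gene spans given above. The other Ctsa window, at the start of its gene span, holds no CACGTG. In Ctsk the PU.1 letters lie 233 and 58 bases before the start, and in Ctss 164 bases before it and at the start itself.

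The 4 other cathepsin genes did not all follow the members. For this list and the related lists below, the shares over all tested genes were 13.2% called higher and 9.95% called lower. Ctso, for a widely expressed papain-type protease, fell from 41.9, 36.3 and 40.9 CPM to 13.7, 13.3, 14.0 and 12.9 CPM (log2 fold change -1.56 ± 0.089 SE, edgeR adjusted p = 2.22e-06). Ctsf, whose product can also process the invariant chain in macrophages, was at 4.24, 3.77 and 4.59 CPM in immature and at 8.56, 7.29, 7.77 and 7.44 CPM in mature replicates. Its log2 fold change of 0.89 ± 0.14 (SE, edgeR adjusted p = 0.00107) missed the fold criterion, in the direction opposite to the 10 members. Ctsw, known from cytotoxic lymphocytes, was at most 0.426 CPM in every library (edgeR adjusted p = 0.729), and Ctsg, of neutrophil granules, reached at most 0.124 CPM and was not tested.

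Among inhibitors, Cst3 rose and no other tested gene passed the criteria. Of 13 cystatin and stefin genes listed, 10 were in the table and 5 passed the filter, with a median log2 fold change of -0.28. Cst3 encodes cystatin C, a secreted inhibitor of papain-type cathepsins. It was at 687, 735 and 817 CPM in immature and at 2483, 2247, 4043 and 2407 CPM in mature replicates, so every mature library lay above every immature one and replicate 3 was highest. Its log2 fold change was 1.91 ± 0.21 (SE, edgeR adjusted p = 0.000117), and 1.70 without mature replicate 3. Cstb, for the intracellular inhibitor stefin B, was at 135, 137 and 160 CPM in immature and at 115, 100, 158 and 100 CPM in mature replicates, with overlapping groups (log2 fold change -0.28, edgeR adjusted p = 0.201). Cst7 (log2 fold change -0.79) fell past the criteria only without mature replicate 3, at -1.10, and Csta2 (0.88) rose past them only without immature replicate 3. The Stfa genes are near-identical copies that can share reads, and Stfa1, Stfa2, Stfa2l1 and Stfa3 were each at 0.232 CPM or less in every library.

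The partners of cathepsins in MHC class II loading moved in both directions. Of 8 genes listed, 3 rose (Ifi30, H2-DMb2 and H2-Oa), 1 fell (Lgmn) and 4 did not pass the criteria, with a median log2 fold change of 0.53. Lgmn encodes legumain, an asparaginyl endopeptidase that opens the invariant chain and activates several cathepsins. It was at 875, 875 and 871 CPM in immature and at 384, 371, 472 and 405 CPM in mature replicates, a clear gap between groups. Its log2 fold change of -1.10 ± 0.096 (SE, edgeR adjusted p = 2.64e-05) passed the fold criterion under 12 of 15 alternatives.

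Ifi30, for the thiol reductase GILT that unfolds disulfide-bonded antigen, was at 174, 181 and 187 CPM in immature and at 381, 424, 647 and 457 CPM in mature replicates (log2 fold change 1.40 ± 0.17 SE, edgeR adjusted p = 0.000225). H2-Oa, for a subunit of the modulator H2-O, had a log2 fold change of 2.25 ± 0.17 (SE, edgeR adjusted p = 1.16e-05). H2-DMb1 and H2-DMb2 are close paralogs that can share reads, with log2 fold changes of -0.94 and 1.17. H2-DMb1 passed the criteria without mature replicate 3, at -1.05 (edgeR adjusted p = 4.68e-07). Cd74, the invariant chain itself and the substrate of cathepsin S, was at 6419, 6548 and 6846 CPM in immature and at 8100, 7405, 11458 and 8052 CPM in mature replicates. Its groups did not overlap, yet the log2 fold change of 0.41 had an edgeR adjusted p of 0.0542 and was 0.27 without mature replicate 3 (adjusted p = 0.00458).

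Of 10 genes for the sorting and partners of cathepsins, 5 fell, 0 rose and 5 did not pass the criteria, with a median log2 fold change of -0.83. Psap encodes prosaposin, the precursor of lysosomal sphingolipid activators, which is sorted by sortilin. It was at 26472, 26379 and 27810 CPM in immature and at 5886, 5548, 6287 and 6488 CPM in mature replicates (log2 fold change -2.15 ± 0.087 SE, edgeR adjusted p = 4.94e-07). Both large sorting receptors, Igf2r for the cation-independent mannose 6-phosphate receptor and Sort1 for sortilin, fell, with log2 fold changes of -1.53 (edgeR adjusted p = 0.000136) and -1.60 (edgeR adjusted p = 2.66e-05). Both were lowest in mature replicate 3, and without it the log2 fold changes were -1.36 for Igf2r and -1.47 for Sort1. M6pr, for the smaller mannose 6-phosphate receptor, had a log2 fold change of -0.25. Nagpa, for the enzyme that uncovers the mannose 6-phosphate tag, fell with a log2 fold change of -1.39. Of the partners of cathepsin A, Neu1 fell with a log2 fold change of -1.04, a call kept under 10 of 15 alternatives and lost without mature replicate 2, and Glb1 had one of -0.58. Scpep1, a serine carboxypeptidase related to Ctsa, was at 302 to 304 CPM in immature and at 284 to 311 CPM in mature replicates (log2 fold change -0.041, edgeR adjusted p = 0.668).

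All 4 genes of the MiT/TFE family, the factors that bind the E-box of lysosomal promoters, had negative log2 fold changes, and 2 of them fell past the criteria. Tfec, of macrophages and osteoclasts, was at 72.1, 71.3 and 74.6 CPM in immature and at 15.0, 14.3, 16.4 and 16.1 CPM in mature replicates (log2 fold change -2.23 ± 0.084 SE, edgeR adjusted p = 4.07e-07). Mitf, at 73.5, 57.7 and 64.5 CPM in immature and 20.3, 22.3, 16.2 and 22.3 CPM in mature replicates, had a log2 fold change of -1.68 ± 0.14 (SE, edgeR adjusted p = 1.63e-05). Tfe3 and Tfeb did not reach the fold criterion, with log2 fold changes of -0.67 (edgeR adjusted p = 6.73e-05) and -0.63 (edgeR adjusted p = 0.0209). Tfeb was at 44.95 CPM in mature replicate 3 and at 26.2 to 30.2 CPM in the other mature libraries.

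**Figure D4:**
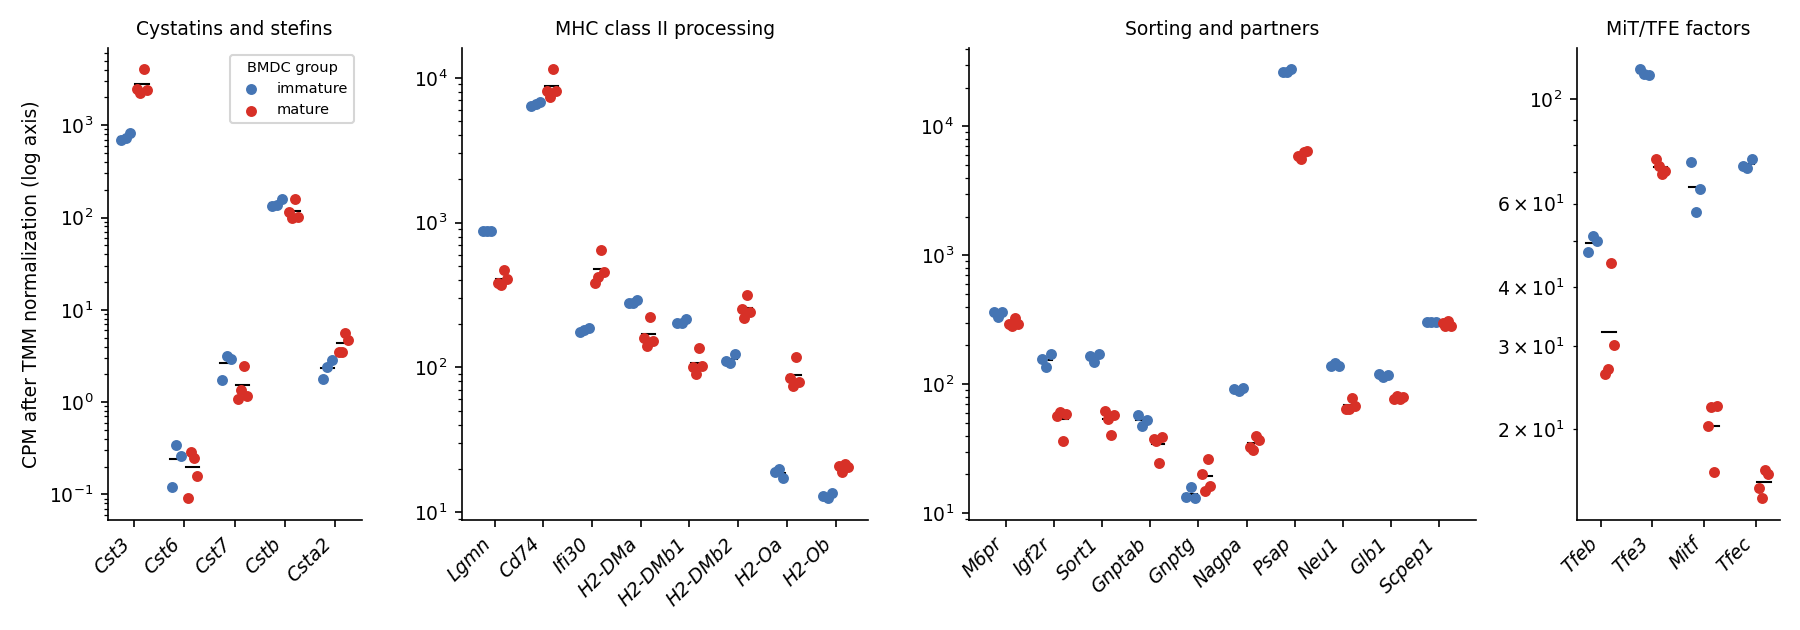
CPM after TMM normalization (log axis) of tested inhibitor, MHC class II processing, sorting and MiT/TFE genes in each library, immature in blue (3 libraries) and mature in red (4 libraries), with black bars for group means. Cst3, Ifi30, H2-DMb2 and H2-Oa lie higher in the mature libraries, and Lgmn, Igf2r, Sort1, Nagpa, Psap, Neu1, Mitf and Tfec lower.

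Markers of other cell types moved with the groups, and their part in the cathepsin differences was not tested. In RNA from sorted populations, fewer cells of a type and less RNA per cell cannot be told apart. Of 7 macrophage markers (Adgre1, Mertk, Fcgr1, Csf1r, C1qa, C1qb and Cd68), 7 fell, with a summed level of 1839 to 1903 CPM in immature and 332 to 383 CPM in mature libraries and a median log2 fold change of -2.60. Of 5 osteoclast markers tested, 3 fell (Acp5, Mmp9 and Atp6v0d2), with sums of 756 to 798 CPM and 266 to 317 CPM, while Calcr was counted in mature replicate 1 only, at 0.106 CPM. Of 6 DC markers, Flt3 and Zbtb46 rose and 4 did not pass the criteria. Flt3 was at 0.310 to 0.647 CPM in immature libraries. Itgax (CD11c) was lower, at 1288 to 1464 CPM in immature and 874 to 1144 CPM in mature libraries (log2 fold change -0.41, edgeR adjusted p = 0.0124). H2-Aa had a log2 fold change of 0.53 (edgeR adjusted p = 0.0134) and H2-Ab1 one of 0.056 (edgeR adjusted p = 0.819). The sum of 8 heart muscle markers was 5.78 to 6.31 CPM in immature and 26.7 to 826 CPM in mature libraries, with mature replicate 1 at the low end. Among markers that passed the filter and were tested, 8 of 8 heart muscle, 3 of 5 fibroblast, 1 of 2 B cell, 1 of 5 epithelial and 1 of 4 mast cell and basophil markers rose, and 1 of 3 neutrophil markers fell. Over all tested genes, 13.2% were called higher and 9.95% lower. Several of these rises were absent from mature replicate 1. There Myh6 (0.500 CPM), Mb (0.288), Ckm (0), Col1a2 (0.243), Lum (0) and Ebf1 (0) lay within or below the immature range. Neutrophil markers summed to at most 3.16 CPM, B cell markers to at most 1.47 CPM and T and NK cell markers to at most 1.44 CPM in any library. Epithelial markers, listed because of the MC38 co-culture, summed to 69.9 to 77.3 CPM in immature and 59.2 to 69.5 CPM in mature libraries. Most of each sum was Cdh1, at 47.3 to 57.8 CPM. Fibroblast markers summed to 12.6 to 21.0 CPM in immature and 24.4 to 31.5 CPM in mature libraries, and mast cell and basophil markers to 6.42 to 8.45 CPM and 33.3 to 44.3 CPM, most of it Kit.

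Mature replicate 1 had the lowest heart muscle sum of the mature libraries, and most of that sum was Tnni3. Like the other mature libraries, it lay below every immature library for all 10 members. Whether heart muscle RNA bears on the cathepsin levels was not tested. With mature replicate 3 left out, 7 members fell past the criteria. Mature replicate 3 was the highest mature library for 7 of the 10 members (Ctsa, Ctsb, Ctsd, Ctsh, Ctsl, Ctss and Ctsz).

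Over the 7 libraries, the genes whose log2 CPM profile was most like that of Ctse, the member with the largest fall, were Lman1, 6430548M08Rik and Washc5 (Pearson r 0.9997, 0.9994 and 0.9993). They shared with Ctse the lowest mature value in replicate 3, with Lman1 at 51.3, 48.4, 41.2 and 51.2 CPM in mature replicates 1 to 4. The points share libraries and 2 groups, so high values of r are common here, and the fold changes of the 3 genes, at log2 values of -1.01, -1.45 and -0.88, were smaller than that of Ctse.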

How the data were processed

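RNA of flow-sorted immature (3 libraries) and mature (4 libraries) BMDCs was analysed. Groups and replicate numbers came from the sample titles. Treatment, culture and mouse details came from the paper. The cathepsin genes and the gene lists were chosen with earlier results of these data known.

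The authors deposited unnormalized counts per gene and FPKM values rounded to 2 decimals. The submitters' processing notes name cutadapt 1.9, HISAT2 2.2.1, StringTie 2.1.6, DESeq2, edgeR and the build mm9, without roles. The strand setting and annotation are not given in the sources used here. Coordinates were taken from the table as given. Start, end and strand equalled GENCODE M21 (GRCm38) for 25842 of 28588 shared gene IDs (90.4%), so GRCm38 was taken as the build. Among the 10 cathepsins 9 were identical, and Ctsa differed in its end.

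Counts went into edgeR 4.0.16 under R 4.3.3 (filterByExpr, TMM, quasi-likelihood test, all 7 libraries, Benjamini-Hochberg adjustment over 17461 genes). The standard error is the log2 fold change divided by the square root of F. Alternatives were DESeq2 1.42.0, limma 3.58.1 on log2(FPKM + 1) and log2(FPKM + 0.1), other normalizations and filters, omission of each library, a replicate block and no fold criterion. Named genes were the 10 cathepsins, the genes past the criteria in 5 related lists and others needed to account for a list, and the 3 genes most correlated with the member with the largest change. A further macrophage marker is not reported here, for a reason unrelated to its values, so the macrophage count covers only the 7 named. Depth was 54846746 to 67973086 counts per library. Promoter windows came from RefSeq. Python 3.11.15 with pandas 2.3.3, numpy 2.4.6, scipy 1.17.1 and matplotlib 3.10.9 served for the remaining steps.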

Additional observations from a re-analysis of the deposited data

Results flagged for a closer look

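Of 13 values compared across the 4 mature libraries (the CPM of each of the 10 cathepsins, their shares of FPKM and of counts, and the Ctss to Ctsl ratio), 1 had a library far from the rest, against 0.65 by chance alone. This was the CPM of Ctss, at 1677 in mature replicate 3 and 1261 to 1311 in the others. The gap to the nearest library made up 0.879 of the range, above Dixon's critical value. Without mature replicate 3 the log2 fold change of Ctss was -0.97 against -0.89 with it.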

How the results depend on the processing

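Under each of 15 alternatives the 10 cathepsins were lower in mature cells, and the same 7 passed the criteria. Without the fold criterion, 10 of 10 members passed, and the counts for related lists were 2 of 3 tested other cathepsins (against 1), 2 of 5 cystatins and stefins (against 1), 7 of 8 MHC class II partners (against 4), 8 of 10 sorting genes and partners (against 5) and 4 of 4 MiT/TFE genes (against 2). Of all tested genes, 46.1% had an adjusted p under 0.05. The count for cystatins and stefins was 1 to 2 with a library left out, since Csta2 passed without immature replicate 3 and Cst7 without mature replicate 3. The count for MHC class II partners ranged from 3 to 5 over the alternatives that kept the fold criterion. The immature over mature ratio of the cathepsin share was 2.89 on FPKM and 3.23 on counts. The largest move of a cathepsin was that of Ctse in limma on log2(FPKM + 1), at -1.35 against -2.75, a scale that compresses low values. Ctsh had an adjusted p above 0.05 with upper quartile normalization (0.0683) and the replicate block (0.0561) as well as without the libraries named above. Upper quartile normalization moved the median log2 fold change of all genes from 0.055 to 0.165. Over all genes, 4037 passed the criteria, against 1768 and 2561 with limma on log2(FPKM + 1) and log2(FPKM + 0.1), and 2665 when an FPKM of 1 in 3 libraries was required.

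Deviations from the group means correlated by at most 0.03 between same-numbered libraries. Over all pairs of an immature and a mature library the correlations were -0.05 to 0.04. With few libraries, and mature replicate 3 apart from its group, this check cannot tell whether libraries shared a culture. The labels do not tie libraries to cultures, and the numbers were not taken as pairs. With the replicate number as a block, 7 cathepsins passed the criteria, as did 1 other cathepsin, 1 cystatin, 4 MHC class II partners, 5 sorting genes and partners and 2 MiT/TFE genes, and 3616 of all genes. Depth limits Ctse most, with 47 to 110 counts per mature library.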
